A study of Mus musculus with 10 samples.

Results

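The class I odorant receptor (OR) genes were followed in RNA of entire main olfactory epithelia (MOE), a tissue made of olfactory sensory neurons (OSNs), supporting cells and basal cells in the lining of the nose. They were taken as every row of the count table from Olfr543 to Olfr692 by number, with or without a pseudogene suffix, and 115 of the 24421 rows met this rule. The table held 1125 rows named Olfr, so that the rule took 10.2% of them as class I members and 1010 Olfr rows lay outside it. No member carried a -ps suffix. By position all 115 lay on chromosome 7, at chr7:102476579-105369355 (GRCm38, the build also called mm10, 1-based), a span of 2.89 Mb, with 61 members on the plus strand and 54 on the minus strand. The GENCODE annotation gave 114 of them as protein coding and Olfr663 as a polymorphic pseudogene.

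The labels give the strain as C57BL/6 and the age as postnatal day 14, and the study describes its mouse lines as being of mixed C57BL/6J and 129 background. WT (wild type) mice carried no deletion, heterozygous (het) mice carried 1 allele and homozygous (homo) mice both alleles of the deletion of TAAR enhancers 1 and 2, the pair of regulatory elements beside the trace amine-associated receptor (Taar) genes on chromosome 10. There were 3 WT, 3 het and 4 homo libraries. According to the study's methods the double deletion came from a single established line made by CRISPR-Cas9, so that the deletion and other features of this line cannot be told apart. All groups shared the labelled strain, the age and the tissue.

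ORs are G protein-coupled receptors that detect odorants, and each mature OSN expresses a single receptor gene from a single allele. Mouse ORs fall into class I, which resembles the receptors of fish and lies in 1 cluster, and class II, which is spread over many chromosomes. Class I receptors are used mostly by OSNs of the dorsal MOE, and many of them respond to hydrophilic odorants such as carboxylic acids. Most olfactory Taar genes are used there too, while Taar6, Taar7a and Taar7b are, according to the study, used more ventrally. An enhancer of the class I cluster, the J element, acts over a long distance on many of its genes. The comparison of the genotypes addresses whether receptor genes in another cluster, on another chromosome, changed when the TAAR enhancers were lost.

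Class I genes arose by tandem duplication, and some remain nearly alike in their coding sequence, which matters for how reads were counted. Of the 115 members, 30 shared more than 10% of their 50-base words with another annotated gene, and 7 pairs in which both partners were members could be aligned over the coding sequence, with identities from 87.7% to 99.5%. The first 120 coding bases of the most alike pair and of a pair that lies in neighbouring positions are shown. Reads that cover none of the differing bases cannot be assigned to one gene. They were read 5′ to 3′ from GENCODE transcripts, and capitals mark the bases that differ between the partners.
Olfr596: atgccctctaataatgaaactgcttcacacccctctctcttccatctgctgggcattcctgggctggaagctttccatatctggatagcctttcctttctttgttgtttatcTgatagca
Olfr603: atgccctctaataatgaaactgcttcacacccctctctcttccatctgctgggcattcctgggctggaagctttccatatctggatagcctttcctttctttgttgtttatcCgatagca
Olfr611: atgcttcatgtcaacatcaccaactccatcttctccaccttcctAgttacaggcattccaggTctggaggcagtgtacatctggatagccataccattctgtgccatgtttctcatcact
Olfr612: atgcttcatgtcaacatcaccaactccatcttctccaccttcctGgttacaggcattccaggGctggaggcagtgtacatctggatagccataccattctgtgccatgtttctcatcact

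Olfr596 (chr7:103305648-103312782, plus strand) and Olfr603 (chr7:103383062-103386177, minus strand) differed at 1 of these 120 bases and were 99.5% identical over the coding sequence, with an identical run of 295 bases. Levels are given as CPM, the counts scaled to the library total, and between genes as CPM per kb of GENCODE exon. Olfr596 had 0.926 ± 0.24 CPM per exon kb (SD over 10 libraries) and Olfr603 0.255 ± 0.241. Olfr611 (chr7:103516465-103520846) and Olfr612 (chr7:103537222-103542717), both on the minus strand, differed at 2 of the 120 bases and shared a run of 342 bases. Olfr611 had 1.85 ± 0.386 CPM per exon kb and Olfr612 0.67 ± 0.219. How reads with several alignments were treated was not stated in the sources used here, so the values of members with a near copy are uncertain as values of single genes. The 30 members with more than 10% shared words had a median level of 0.641 CPM per exon kb and the other 85 a median of 0.872, and the part that sequence sharing has in this difference was not tested. In addition, 14 members overlapped another gene of the table in the GENCODE annotation, Olfr643 alone overlapping 8 members.

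Depth was similar in the genotypes, with total counts of 21423861 to 27712948 per library and 19078 to 19477 genes with at least 1 count. At this depth a gene listed at 0 could have had up to 3 counts, or 0.108 to 0.14 CPM, a limit that covers counting error only. The Taar genes checked the genotypes. The 14 olfactory Taar genes summed to 850 to 915 counts in WT, 738 to 862 in het and 2 to 5 in homo libraries, and 12 of the 12 tested fell in homo against WT and against het mice. The markers of mature OSNs (Omp, Stoml3, Cnga2, Adcy3 and Gnal) summed to 7590 to 9125 CPM in the 10 libraries, so the labelled tissue carried its defining neurons. The het-2 library stood apart for receptor genes, as described below.

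Nearly all class I genes were detected in every library. At least 1 count was found for 110 to 114 of the 115 members, 108 had a count in all 10 libraries and 114 in at least 1. The exception was Olfr564 (chr7:102803480-102804430, plus strand), which was listed at 0 in all 10 libraries and shared 36.5% of its words with the annotated Olfr562-ps1. By genotype, 112, 110 and 111 members had a count in WT, 111, 111 and 110 in het, and 111, 110, 114 and 112 in homo libraries, and the groups overlapped. The share of members with a count in every library, 93.9%, stood beside 94.6% of the other OR genes.

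The class I total differed between WT and homo MOE by less than the spread between libraries. It came to 311, 326 and 358 CPM in the WT libraries, with a mean of 331.8 ± 23.9 CPM (SD, n = 3). The het libraries had 348, 459 and 331 CPM, with a mean of 379.2 ± 69.4 CPM (SD, n = 3). The homo libraries had 307, 344, 379 and 337 CPM, with a mean of 341.6 ± 29.7 CPM (SD, n = 4). Genotypes overlapped in every comparison, and het-2 lay above all other libraries. Against WT the mean was 2.95% higher in homo and 14.3% higher in het mice, and the latter difference was 2.28% without het-2. The difference of homo from het mice was −9.91% with het-2 and 0.659% without it. In bulk tissue, fewer OSNs with class I receptors and less receptor RNA per OSN cannot be told apart. As these genes were taken as a group with earlier results known, the total was described without a p-value.

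**Figure D1:**
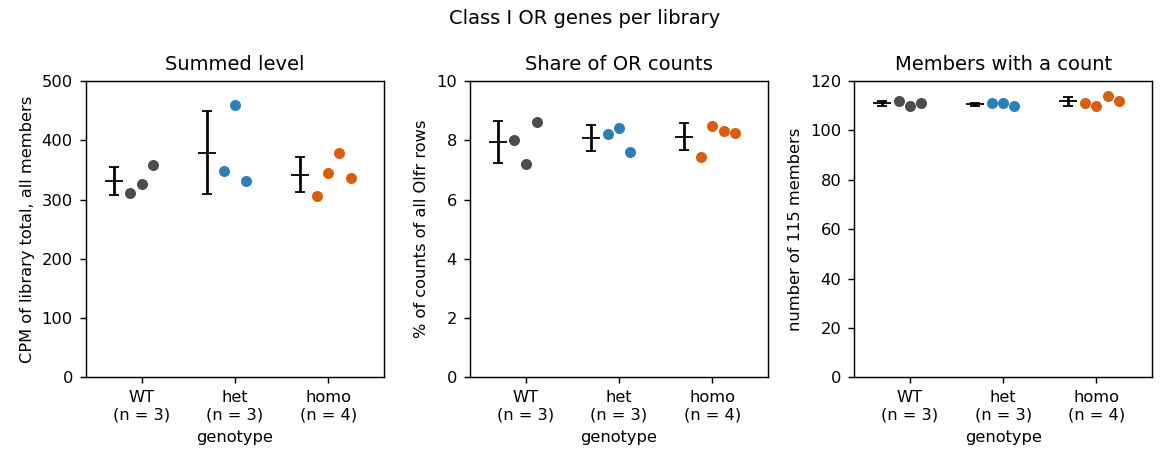
Summed class I level (CPM of the library total), class I share of the counts of all Olfr rows (%) and number of members with at least 1 count, by genotype. Points are libraries and black bars the mean and SD. The 3 genotypes overlap in each panel, and het-2 stands alone at 459 CPM while its share of OR counts, 8.41%, lies within the range of the other libraries.

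Class I genes, as taken by number, held 7.19 to 8.62% of all OR counts in the 10 libraries. They took 8.01, 7.19 and 8.62% of all OR counts in WT, 8.22, 8.41 and 7.59% in het, and 7.45, 8.48, 8.32 and 8.26% in homo libraries. The means were 7.94% ± 0.717, 8.07% ± 0.431 and 8.13% ± 0.463 (SD, n = 3, 3 and 4). On this scale het was 1.62% above WT in relative terms, and −0.524% without het-2. The library that was high for class I was therefore high for the other OR genes too, at 4995 CPM against 3572 to 4208 CPM in the other 9. For the sum of the OSN markers het-2 had 7922 CPM, the second lowest, with the lowest Omp level of the 10 at 3572 CPM. Omp, at a mean of 4233 CPM over the 10 libraries, was much of that sum. Gnal, Adcy3, Cnga2, Cnga4, Cngb1 and Ano2, which act in olfactory signalling, summed to 4362 CPM in het-2. In the other libraries this second sum ran from 3988 to 4453 CPM. What sets het-2 apart was not tested.

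The labels gave no sex, litter or batch. Counts of Xist, which is transcribed from the inactive X chromosome of females, were 20 to 27 in 4 libraries and 18079 to 38390 in the other 6, and these 4 held 1 WT, 1 het and 2 homo libraries. Within them the class I total was 311.2 CPM in WT, 347.6 CPM in het and a mean of 361.5 CPM in homo mice. Within the other 6 the means were 342.1, 395 and 321.7 CPM (n = 2 each), so that the direction of homo against WT differed between these subsets. With 1 or 2 libraries a cell, this was not tested.

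Levels of single members spanned a wide range with a long, shallow tail. To compare genes, counts were divided by the length of the GENCODE exons, which ran from 936 to 8565 bp with a median of 2921 bp. The median member had 0.762 CPM per exon kb, the highest had 9.09, and 20 members were above 2. Without length, 18 members had a mean of at least 5 CPM, 81 had 1 to under 5, 11 had 0.1 to under 1, and 5 were under 0.1. The 10 members with the most counts held 26.2% of all class I counts and the 20 highest 42%, while the lower 57 held 20.9%. By CPM, which takes no account of length, the highest member ranked 34 among the 1125 OR genes and was the single member among the 50 highest. On the same scale the median over members was 2.46 CPM beside a median of 2.61 CPM for the other OR genes, whose highest gene reached 129 CPM.

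Olfr672 (chr7:104995760-105002029, minus strand) led the cluster. It had 13, 12.8 and 15.6 CPM in WT, 12, 16 and 11.9 in het, and 13.8, 11.2, 15.6 and 13.5 in homo libraries, or 9.09 ± 1.1 CPM per exon kb (SD over 10 libraries). It was first of all members in 9 of the 10 libraries, and Olfr640 was first in homo-2. Its 3 genotypes overlapped, with log2 fold changes of −0.02 (SE 0.15) in homo against WT and −0.05 (SE 0.16) in het against WT.

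Olfr598 (chr7:103323568-103329888, plus strand) followed at 5.17 ± 0.74 CPM per exon kb. Its coding sequence is 96.9% identical to that of Olfr597, which had 1.29 ± 0.384 CPM per exon kb. The next 8 by this scale lay close together, between 2.95 and 3.86 CPM per exon kb, with SDs of 0.43 to 0.79, so that their order was not resolved by the spread between libraries. These were Olfr570, Olfr669, Olfr549, Olfr566, Olfr610, Olfr649, Olfr690 and Olfr665. They came from both ends and the middle of the cluster.

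The order depended on the length used. Counts alone and counts per exon kb gave orders with a Spearman's rho of 0.86 over the 114 members with a count, a description over genes measured in the same libraries, and 6 of the 10 highest were shared. Dividing by coding length instead, with a median of 951 bp, gave a rho of 0.975 with the order of counts and 9 shared of 10. Olfr672 was first on all 3 scales. Olfr643 came second per coding kb, where its annotated coding length was 138 bp, and 28th per exon kb.

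**Figure D2:**
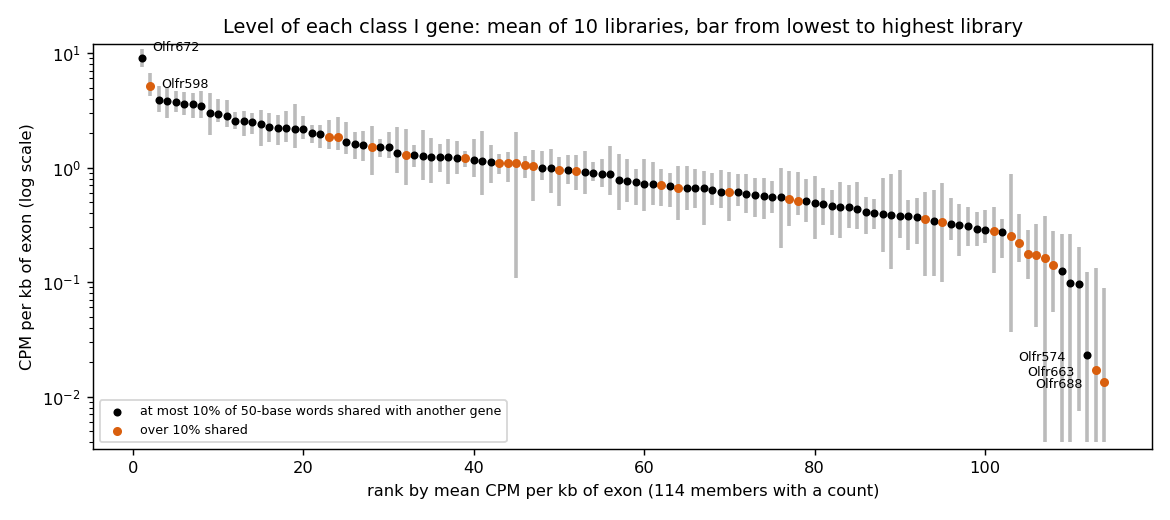
Level of the 114 class I genes with a count, ranked by mean CPM per exon kb (log axis). Points are means of the 10 libraries and bars run from the lowest to the highest library, bars that reach the lower edge having a library at 0. Members with more than 10% of their 50-base words shared with another gene (orange) include Olfr598 near the top and many of the lowest.

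Members ranked much alike in all libraries. Between pairs of libraries, Spearman's rho over the 114 members ran from 0.875 to 0.951 with a median of 0.924. The median was 0.92 over the 12 pairs of the same genotype and 0.924 over the 33 pairs of different genotypes. The other OR genes gave 0.912 to 0.958.

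Spread between libraries differed between members. The biological coefficient of variation fitted by edgeR had a median of 20.9% over 106 members, beside 20.7% in the other OR genes tested and 18.9% in genes outside the family with levels in the same range. The lowest value was that of Olfr640, at 13.6%, whose libraries lay between 8.62 and 12.2 CPM. The highest was that of Olfr585, at 58.5%, with 0.112, 0.938 and 2.12 CPM in WT, 0.746, 1.89 and 1.83 in het, and 0.887, 0.265, 1.1 and 1.3 in homo libraries. The WT libraries of Olfr585 alone spanned the range of all the others.

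Of the 115 members, 106 passed the filter on low counts and were tested singly. The 9 others were Olfr547, Olfr564, Olfr574, Olfr583, Olfr589, Olfr603, Olfr631, Olfr663 and Olfr688, with 0 to 63 counts over all libraries together, and 6 of these 9 shared more than 10% of their words with another gene, against 24 of the 106 tested. Olfr688 had 3 counts in all and shared 84.2% of its words with Olfr687. The tests were quasi-likelihood F tests of edgeR with Benjamini-Hochberg adjustment over 17197 genes.

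No class I gene passed the test in any comparison of genotypes. In homo against WT, 0 of 106 members had an adjusted p under 0.05, where 0.0698% of all genes tested did. In het against WT the count was 0, with 0.0% of all genes, and in homo against het it was 0, with 0.0756% of all genes. The 12 genes called in homo against WT were the 12 tested Taar genes, and these were also among the 13 called in homo against het. DESeq2 and limma on the same libraries also called 0 members in each comparison. At an unadjusted p under 0.05 there were 1, 4 and 2 members in these comparisons by edgeR, 1, 5 and 3 by DESeq2, and 1, 4 and 3 by limma. In edgeR these were 0.943, 3.77 and 1.89% of members, beside 2.41, 1.92 and 2.48% of all genes, so that the members' share lay below the background in both comparisons of homo mice and above it in het against WT. The other OR genes had shares of 3.42, 4.7 and 6.19%. Leaving out 1 library at a time, the members' counts ran from 1 to 3, 0 to 11 and 1 to 9, and without het-2 they were 1, 0 and 2. The smallest adjusted p was 1, 1 and 0.999.

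Median fold changes over the members were small. In homo against WT the median log2 fold change was 0.03, with 63 of 106 members positive, and single values lay between −0.84 and 0.63. The median over the other OR genes was −0.03 and over all genes 0.00012. In het against WT the median was 0.21, with 89 of 106 members positive, beside 0.15 for the other OR genes. Single values lay between −1.18 and 1.10, and the 2 members over 2-fold, Olfr568 (lower) and Olfr628 (higher), were low in level and did not pass the test. Olfr628 had 0.224, 0.156 and 0.692 CPM in WT and 0.483, 0.631 and 1.14 CPM in het libraries. In homo against het the median was −0.16, with 25 of 106 positive, beside −0.17 for the other OR genes, and single values lay between −0.79 and 0.44. The last 2 comparisons share the het libraries, and without het-2 their medians were 0.06 and 0.04. The median SE of a member was 0.26 on the log2 scale in homo against WT, so that these libraries did not resolve changes of this size in most single genes.

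**Figure D3:**
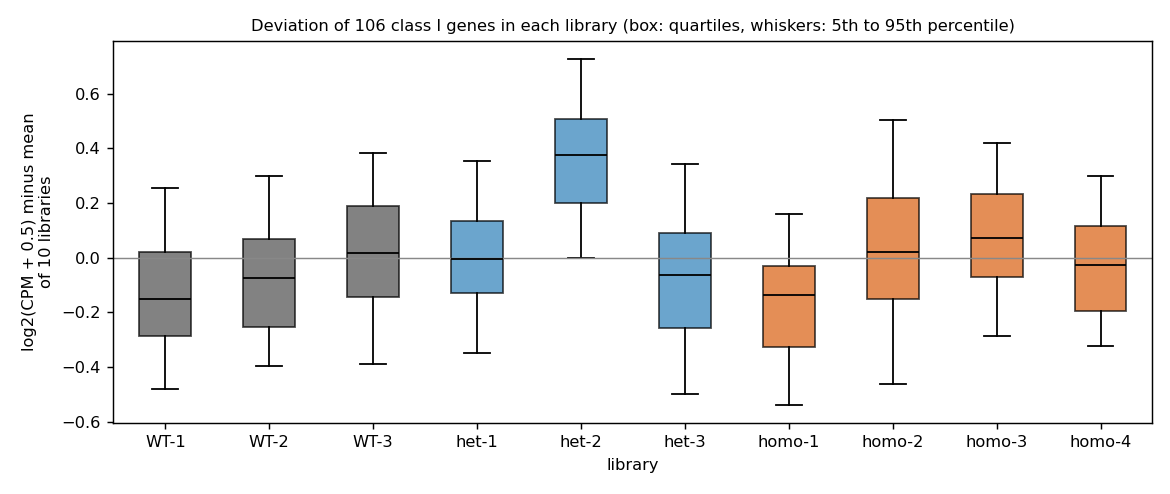
Deviation of each of 106 class I genes from its mean over the 10 libraries, as log2(CPM + 0.5), for every library. Boxes give quartiles with the median, and whiskers the 5th to 95th percentiles. The median of het-2 lies at 0.38 and those of the other 9 libraries between −0.15 and 0.07.

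Most of the rise in het mice thus came with 1 library. Without het-2 the median log2 fold change over the members in het against WT was 0.06, beside 0.21 with it. The het-2 library had the highest CPM of all 10 for 58 of 106 members (54.7%), and for 47.3% of the other OR genes and 17.7% of all genes tested. It was the lowest library for 0 members. The genotype means of het are given here with this library in them.

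Genes whose libraries did not overlap between genotypes were few. In homo against WT, 3 of 106 members lay higher in every homo library, where 1.70% of all genes did, and 1 lay lower, where 1.85% did. In het against WT the counts were 7 higher and 1 lower, beside 2.94 and 2.28% of all genes and 6.4 and 0.961% of the other OR genes. In homo against het they were 0 higher, beside 2.04%, and 2 lower, beside 1.89%.

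Olfr571 (chr7:102905090-102917536, minus strand) had the smallest p of the members in homo against WT. It had 2.28, 2.31 and 2.94 CPM in WT, 2.9, 3.32 and 2.4 in het, and 2.94, 3.67, 4.91 and 3.97 in homo libraries. Its lowest homo library lay just above its highest WT library, and the het libraries overlapped both groups. The log2 fold change was 0.63 (SE 0.22), with an unadjusted p of 0.0108 and an adjusted p of 1 by edgeR, and it did not pass the test. Its neighbour Olfr572 (chr7:102924409-102928608, plus strand) had 2.88, 2.07 and 2.29 CPM in WT. Its homo libraries, with 3.03, 2.48, 3.81 and 3.1 CPM, overlapped the WT libraries, with a log2 fold change of 0.37 (SE 0.22).

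Olfr591 and Olfr577 were the other members named on the higher side of homo against WT. Olfr591 had 1.64, 1.13 and 1.69 CPM in WT and 1.87, 2.87, 1.95 and 2.09 CPM in homo libraries (log2 fold change 0.57, SE 0.3). Olfr577, which overlaps Olfr576 on the other strand, had 0.897, 1.21 and 1.3 CPM in WT and 0.794, 2.43, 1.61 and 2.13 CPM in homo libraries (0.63, SE 0.34). The homo libraries of Olfr591 lay above all WT libraries and those of Olfr577 did not.

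On the lower side Olfr615 (chr7:103556079-103563798, plus strand), 1 of the more abundant members, had 7.51, 8.6 and 10.8 CPM in WT, 8.51, 11 and 8.5 in het, and 5.88, 5.35, 9.06 and 7.94 in homo libraries. Its homo and WT libraries overlapped, and its log2 fold change was −0.34 (SE 0.19) against WT and −0.40 (SE 0.19) against het, with adjusted p of 1 and 0.999 by edgeR. Against WT it was −0.19 without WT-3, and against het −0.26 without het-2. Olfr568 had under 1 CPM in every library, from 0.336 to 0.821 in WT, 0.122 to 0.336 in het and 0.169 to 0.531 in homo. Its log2 fold changes were −0.84 (SE 0.52) in homo and −1.18 (SE 0.58) in het against WT, the most negative of the members in both comparisons, and rest on few counts. Olfr594 had 2.95 to 4.76 CPM in WT and 2.47 to 3.39 CPM in homo libraries (−0.28, SE 0.20), which overlapped. Without WT-3 the log2 fold changes in homo against WT were −0.47 for Olfr568 and −0.08 for Olfr594.

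In het against WT, Olfr676 (chr7:105032698-105037750) and its neighbour Olfr677 (chr7:105051372-105059006), both on the plus strand, were among the 4 members with an unadjusted p under 0.05, all of them higher in het. Olfr676 had 1.38, 1.52 and 1.25 CPM in WT, 2.15, 2.48 and 2.28 in het, and 1.68, 1.68, 2.71 and 1.34 in homo libraries. The het libraries lay above the WT libraries, while homo libraries ranged over both. The log2 fold change was 0.73 (SE 0.29, unadjusted p of 0.0238 and adjusted p of 1 by edgeR). Olfr677 had 3.85, 3.64 and 2.51 CPM in WT and 4.65, 6.9 and 3.54 CPM in het libraries, which overlapped, and its log2 fold change of 0.59 was 0.29 without het-2.

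The other 2 were Olfr561 and Olfr653. Olfr561 had 1.83, 2.7 and 2.68 CPM in WT, 2.59, 4.08 and 4.51 in het, and 2.8, 2.92, 4.02 and 2.96 in homo libraries (0.64, SE 0.26, in het against WT). Olfr653 had 4.26, 6.65 and 5.27 CPM in WT and 7.59, 10.8 and 4.92 CPM in het libraries (0.53, SE 0.25). The het and WT libraries of both genes overlapped. Among same-numbered libraries, a pairing that is uncertain, Olfr561 was higher in het in 3 of 3 pairs, as were Olfr676 and Olfr677. Olfr653 was lower in het-3 than in WT-3. With the replicate number as a block the log2 fold change of Olfr561 was 0.62, with an unadjusted p of 0.0136 by edgeR. On the lower side of het against WT, Olfr543 and Olfr584 had log2 fold changes of −0.35 (SE 0.36) and −0.18 (SE 0.21), and Olfr584 had 3.48 to 3.77 CPM in WT beside 2.97 to 3.38 CPM in het.

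In homo against het, Olfr692 (chr7:105368230-105369355, plus strand) had the smallest p. This receptor is also known from neurons of the vomeronasal organ, the neighbouring chemosensory tissue. It had 2.09, 1.92 and 2.64 CPM in WT, 3.29, 4.04 and 2.36 in het, and 1.68, 2.61, 1.82 and 2.17 in homo libraries, and its groups overlapped. The log2 fold change was −0.63 (SE 0.25, unadjusted p of 0.0203 and adjusted p of 0.999 by edgeR), and −0.44 without het-2. Vomeronasal genes (Trpc2 and the Vmn1r and Vmn2r names, 339 in all, 183 of them at 0 throughout) summed to 15.3 to 19.2 CPM in WT, 17.1 to 23.1 in het and 16.9 to 21.7 in homo libraries. The highest sum in het, 23.1 CPM, and in homo, 21.7 CPM, came from het-2 and homo-2, the libraries with the highest Olfr692 within each of these genotypes, while in WT the highest sum, 19.2 CPM in WT-2, went with the lowest Olfr692. Much of this sum was 1 gene, Vmn2r29, with a mean of 8.18 CPM and 6.36 to 10.1 CPM in single libraries. Trpc2, a channel used by vomeronasal neurons, had 1 count in all 10 libraries together, and the reason for this low count was not tested.

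Olfr592 had 1.83 to 2.38 CPM in WT, 2.37, 6.27 and 1.59 in het, and 1.68 to 2.38 in homo libraries. Its log2 fold change of −0.75 in homo against het was carried by het-2 and was 0.05 without that library. Olfr656, on the higher side, had a log2 fold change of 0.26 (SE 0.26), which was 0.09 without homo-2.

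**Figure D4:**
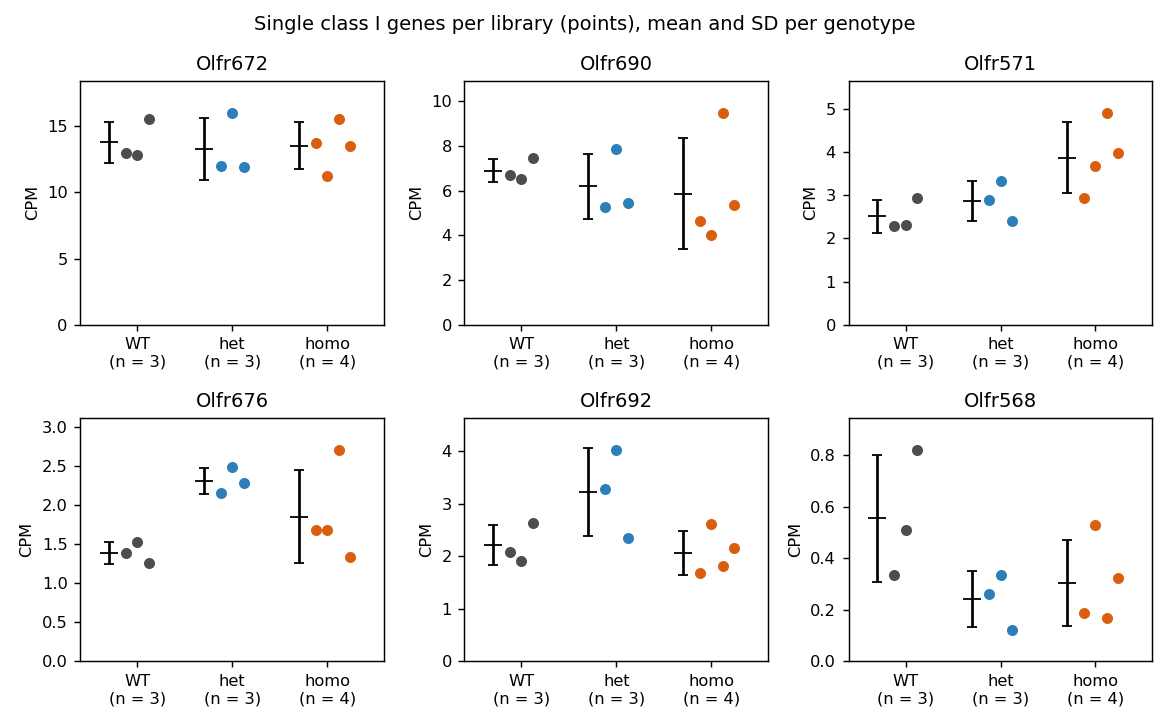
CPM of 6 class I genes in every library, with the mean and SD of each genotype beside the points. The genotypes of Olfr672 overlap, the homo libraries of Olfr571 lie above its WT libraries by a narrow margin, Olfr676 is higher in the 3 het than in the 3 WT libraries, and Olfr568 is under 1 CPM throughout.

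None of the members that the study used as probes or antibody targets in any of its mouse lines passed the test. Besides Olfr672, Olfr543, Olfr653 and Olfr692, these were Olfr547, Olfr552, Olfr578, Olfr639, Olfr644 and Olfr690. Olfr578 was the most abundant of these 6 by counts, with 6.88 to 9.86 CPM in WT, 8.6 to 11.4 in het and 7.89 to 11.3 in homo libraries, and a log2 fold change of 0.22 (SE 0.17) in homo against WT. By in situ hybridization in the double-deletion line the study counted fewer Olfr578 cells on average in homo than in WT mice. It reported this difference as not significant. Olfr690 had 6.69, 6.53 and 7.48 CPM in WT and 4.62, 4.02, 9.48 and 5.34 CPM in homo libraries, so that 3 homo libraries lay below all WT libraries and 1 above (−0.23, SE 0.24). Olfr552, Olfr639 and Olfr644 had log2 fold changes of 0.18, 0.16 and 0.25 with SEs of 0.20, 0.37 and 0.29, and Olfr639 and Olfr644 overlap Olfr643 in the annotation. Olfr547 was not tested, since it had 35 counts in all and from 0 to 0.351 CPM in single libraries.

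Both the counts and the fold changes were spread along the cluster. In windows of 500 kb from the first member, 28, 21, 21, 11, 18 and 16 members held 21.1, 17.6, 17.1, 8.47, 18.6 and 17.2% of the class I counts. The share of the first window was 20.9% ± 0.758 in WT, 20.7% ± 1.25 in het and 21.5% ± 0.314 in homo libraries (SD, n = 3, 3 and 4). In the fifth window, which holds Olfr653 and Olfr665, it was 17.4, 18.6 and 18% in WT, 19.2, 19.8 and 18.9% in het, and 18.8, 18.5, 18 and 18.5% in homo libraries. All het libraries lay above the others there, but by a narrow margin, with 18.89% in het-3 beside 18.82% in homo-1. This window was named after its values were seen, and the difference was not tested. The median log2 fold changes of the windows were 0.005 to 0.16 in homo against WT, 0.18 to 0.32 in het against WT and −0.28 to −0.05 in homo against het.

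**Figure D5:**
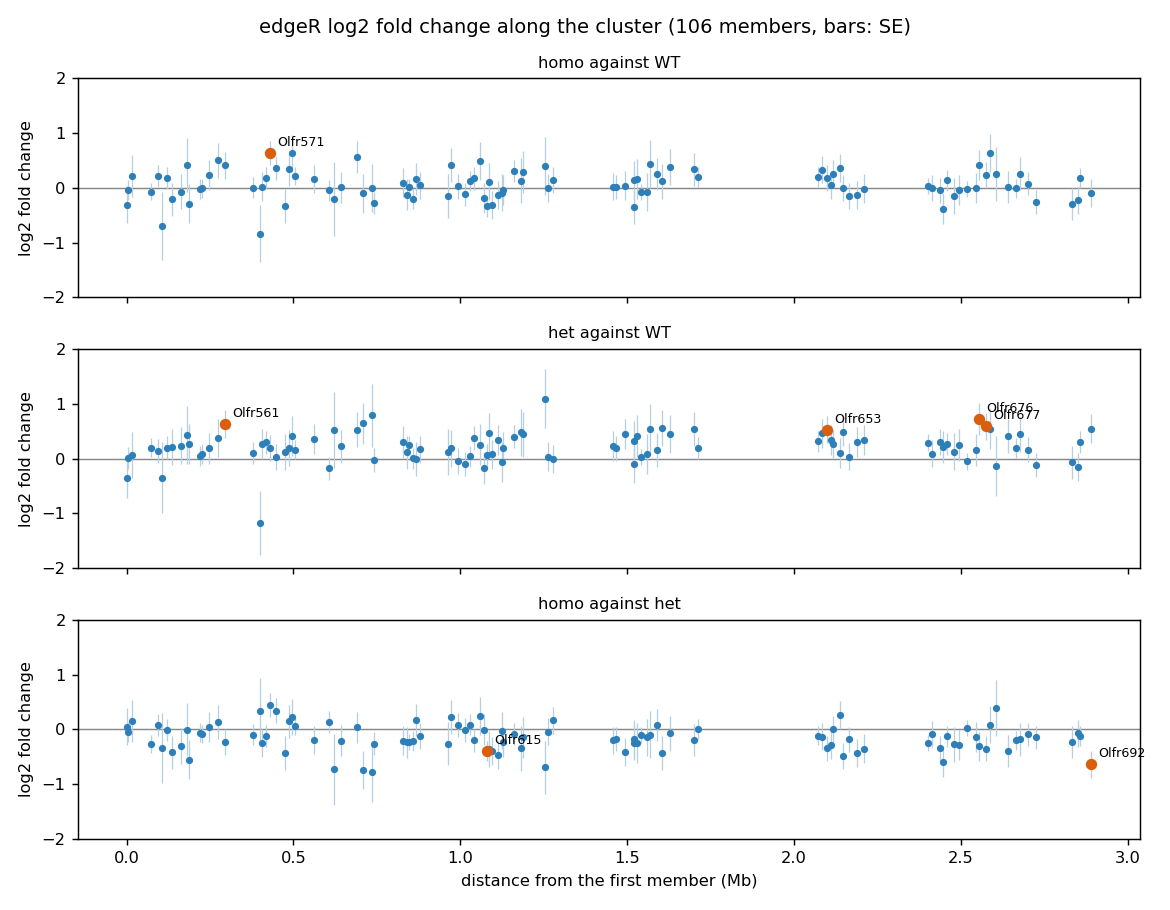
edgeR log2 fold change of the 106 tested class I genes against distance from the first member (Mb), for the 3 comparisons, with SE bars. Orange points have an unadjusted p under 0.05, which 1, 4 and 2 members reach, and none has an adjusted p under 0.05.

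No other gene inside the span passed the test either. The 9 further Olfr rows there, Olfr33, Olfr78, Olfr243, and Olfr64 to Olfr69, were not members by number and were counted among the other OR genes. By position they lie within the class I cluster, so the class I totals and shares given here leave them out. With these rows added, the class I total was 3.33% higher in homo than in WT mice, beside 2.95% without them. Of these 9, 0 passed the edgeR test in any comparison, with 0 at an unadjusted p under 0.05. Olfr78, which overlaps the member Olfr560 and shares 44.1% of the words of that gene, had 6.33 to 10.1 CPM and Olfr560 0.747 to 1.99 CPM in single libraries. Of 24 rows of other genes, 0 passed the test. Trim12a of the tripartite motif family had an unadjusted p of 0.0142 in homo against WT (log2 fold change 0.37), with an adjusted p of 1 by edgeR. The adult beta-globin genes Hbb-bs and Hbb-bt, which lie in the midst of the cluster, were listed at 0 in all libraries, as were the alpha-globin genes Hba-a1 and Hba-a2, so the level of red cells could not be read from this table.

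Of the genes that act with the receptors, none passed the test. All 6 genes of the olfactory cAMP cascade (Gnal, Adcy3, Cnga2, Cnga4, Cngb1 and Ano2), which turns receptor activation into a current, all 3 receptor chaperones (Rtp1, Rtp2 and Reep1), and all 11 factors of receptor choice and receptor enhancers, among them Lhx2, Ldb1 and Ebf1, were tested, and 0 of these 20 passed the edgeR test or had an unadjusted p under 0.05 in any comparison. Their log2 fold changes in homo against WT lay between −0.16 and 0.13. The same held for the dorsal zone genes Nqo1, Acsm4 and Robo2, which mark the region where class I receptors are used. They summed to 752 to 916 CPM in WT, 827 to 939 in het and 795 to 934 in homo libraries, and het-2 had the highest sum in het. The ventral genes Ncam2 and Nrp2 summed to 250 to 307, 273 to 284 and 251 to 302 CPM. Markers of immature OSNs (Gap43 and Gng8), supporting cells (Cyp2g1, Ermn and Cyp1a2), basal cells (Krt5, Krt14 and Trp63) and ciliated cells (Foxj1) also gave 0 calls.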

How the data were processed

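Total RNA of whole MOE was made into directional libraries after poly(A) selection. Per the labels and the study's methods, reads were trimmed (Trimmomatic 0.36), aligned to mm10 (HISAT2 2.1.0) and counted per gene with featureCounts (Subread 1.6.2). The deposited raw counts are the values used. The annotation, strand setting and treatment of multiple alignments are not given in the sources used here. A normalized signal table was deposited too (counts divided by 1 DESeq2 1.20.0 size factor per library), from which 100% of values came out as whole reads (tolerance 0.01 reads), and edgeR on these reads called 12, 0 and 13 genes.

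Groups and replicate numbers came from the sample titles. The study gives its n for these RNA-seq data in littermates, and each library was counted as 1 mouse. Libraries of a genotype differed from each other beyond counting noise (chi-square divided by degrees of freedom over members 2.09 to 4.41). Tests used edgeR 4.0.16 under R 4.3.3 (filterByExpr, minimum count 10 and total 15, TMM, robust quasi-likelihood fit of genotype to all 10 libraries, two-sided tests, Benjamini-Hochberg over 17197 genes, calls at 0.05), with DESeq2 1.42.0 and limma 3.58.1 as alternatives. The fit was tested on simulated data. CPM used the library total. Same-numbered WT and het libraries deviated together (correlations 0.326, 0.285 and 0.235). Those of WT and homo (−0.0995, −0.0122 and −0.0734) and of het and homo (−0.148, 0.159 and 0.0676) did not. The numbers were therefore taken to pair WT with het only. Unlike-numbered pairs ran from −0.391 (het-3 with homo-2) to 0.269 (WT-3 with homo-4), above the lowest of the same-numbered WT and het values, so this pairing is uncertain.

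Positions and lengths came from GENCODE vM21 on GRCm38, matched by symbol for all 115 members. The members and gene lists were chosen with earlier results of these data known. Genes named are the 10 highest per exon kb, in each comparison the 3 higher and 3 lower members with the smallest p, the study's probe or antibody targets, members at 0 throughout, globins and other genes inside the span, and the listed genes. Olfr585, Olfr628, Olfr640, Vmn2r29, the near-identical pairs and members named for overlaps were chosen after their values were seen.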

Additional observations from a re-analysis of the deposited data

Results flagged for a closer look

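Among the 4 homo libraries, 35 results were checked for a library far from the rest, and 2 were flagged, where chance flags about 1 in 20. Olfr566 had 9.44 CPM in homo-3 and 6.77, 6.41 and 6.35 CPM in the other homo libraries, and its WT libraries reached 9.42 CPM. Olfr561 had 4.02 CPM in homo-3 beside 2.8, 2.92 and 2.96 CPM, and its het libraries reached 4.51 CPM. WT and het, with 3 libraries each, were not checked in this way.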

How the results depend on the processing

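The count of members called was 0 under all 61 alternatives run (DESeq2, limma with pseudocounts 1 and 0.5, other size factors, other filters, the 2 genotypes alone, recovered reads, a sex term, the replicate block, and each library left out). With the replicate number as a block, members called were 0 and their median log2 fold changes were 0.08 (homo and WT compared), 0.20 (het and WT) and −0.13 (homo and het), and the differences of the class I total 3.43, 14.3 and −9.49%. The block changed no call of a member, but over all genes it called 19 rather than 12 in homo against WT, 24 rather than 13 in homo against het and, with WT and het alone, 3 rather than 0. Recovered reads, the sex term, the block in WT and het alone and the order per coding kb were chosen after seeing the data.

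Leaving out 1 library at a time, and with the comparisons in the order given above, members called were 0 each time. The median log2 fold change ran from −0.0023 (without homo-3) to 0.12 (without WT-3), from 0.06 to 0.32 (without het-2 and het-3) and from −0.26 (without het-3) to 0.042 (without het-2), where it changed sign. The class I total ran from −0.783 to 7.19%, from 2.28 to 21.5% and from −15.3 to 0.659%, and the difference in members detected from 0 to 1.33, −0.833 to 0.167 and 0.333 to 1.67. Olfr543 in het against WT ran from −0.555 to 0.0519 (without WT-3) and Olfr592 in homo against het from −1.09 to 0.0479 (without het-2), both with the sign turned at the upper end, and the other 358 alternatives for the named members kept theirs. As a share of OR counts, het against WT was 1.62%. With at least 10 counts as the threshold, the differences in members detected were −0.583, 1.33 and −1.92 in place of 0.75, −0.333 and 1.08. Rank agreement was 0.902 over members with a mean of at least 10 counts. The causes were not tested. The planned run without -ps members had nothing to remove. Low counts limit members under about 1 CPM.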
